A study of Mus musculus with 6 samples.

Results

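The Fc receptor genes Fcgr1, Fcgr2b, Fcgr3, Fcgr4, Fcer1g and Fcgrt were followed in DC2.4 cells, an established mouse dendritic cell line. The genes were chosen by symbol. Each of the 6 symbols had 1 row in the deposited count table, so 6 of 54532 genes are described. The tested group was DC2.4 cells transfected with a pTT5 vector for overexpression of Vdbp, the vitamin D-binding protein that the mouse gene Gc encodes. Its control was the same line given pTT5 without an insert (empty vector), and each group had 3 libraries. All cells were of the same line, were passaged 48 h after transfection and then went through selection, and were grown in the same medium with fetal bovine serum. The labels describe the line as immature and give its cell type as dendritic cells of bone marrow origin. Nothing in the labels ties the 3 libraries of a group to separate cultures, so p-values measure the spread between these libraries, which may be technical.

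Fc receptors bind the constant part of antibodies and tie antibody-coated particles and immune complexes to the cells that take them up. The activating IgG receptors of the mouse (Fcgr1, Fcgr3 and Fcgr4) have no signalling tail of their own and assemble with the FcR gamma chain, encoded by Fcer1g, which carries the tyrosine-based activation motif (ITAM) that the kinase Syk binds. Fcgr2b is the only inhibitory IgG receptor and works through phosphatases such as SHIP1, so the balance of activating receptors to Fcgr2b sets how readily dendritic cells respond to immune complexes. Fcgrt encodes the heavy chain of the neonatal Fc receptor FcRn, an MHC class I-like molecule that pairs with beta-2-microglobulin and recycles IgG from acidic endosomes.

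Of the 6 genes, 4 lie on chromosome 1. Fcgr2b (ENSMUSG00000026656, chromosome 1, 170958617 to 170976547), Fcgr4 (ENSMUSG00000059089, 171018920 to 171029761) and Fcgr3 (ENSMUSG00000059498, 171051174 to 171064935) follow each other within 106 kb, with Fcgr4 on the plus strand and the others on the minus strand. Fcer1g (ENSMUSG00000058715, 171229572 to 171234365, minus strand) begins 165 kb beyond Fcgr3. Fcgr1 (ENSMUSG00000015947) is on chromosome 3 from 96282909 to 96293969, and Fcgrt (ENSMUSG00000003420) on chromosome 7 from 45092990 to 45103851, both on the minus strand. All 6 genes had the same start and end in GENCODE M21, which is on GRCm38.

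The promoters of the low- and high-affinity IgG receptors are shown because the transcription factor PU.1 (Spi1), a master factor of myeloid cells, is known to bind a purine-rich box with the core GAGGAA. They are RefSeq windows on GRCm38.p6, from 250 bases before to 50 bases after the annotated start, written 5′ to 3′ along the gene. For Fcgr3 and Fcgr2b the window lies wholly inside the gene span given above, whose 5′ ends are at 171064935 and 170976547. For these genes a match, or its absence, concerns the RefSeq start and not the 5′ end of that span. All 6 genes had an entry. Capitals mark GAGGAA on either strand (read as TTCCTC on the other).
Fcgr1, chr3:96293920-96294219, minus strand: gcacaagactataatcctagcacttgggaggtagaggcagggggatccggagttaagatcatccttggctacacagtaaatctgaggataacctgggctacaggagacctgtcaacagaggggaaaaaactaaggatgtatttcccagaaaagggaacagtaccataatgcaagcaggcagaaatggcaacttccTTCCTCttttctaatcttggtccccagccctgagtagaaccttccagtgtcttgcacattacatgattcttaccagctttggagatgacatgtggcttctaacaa
Fcgr3, chr1:171059354-171059653, minus strand: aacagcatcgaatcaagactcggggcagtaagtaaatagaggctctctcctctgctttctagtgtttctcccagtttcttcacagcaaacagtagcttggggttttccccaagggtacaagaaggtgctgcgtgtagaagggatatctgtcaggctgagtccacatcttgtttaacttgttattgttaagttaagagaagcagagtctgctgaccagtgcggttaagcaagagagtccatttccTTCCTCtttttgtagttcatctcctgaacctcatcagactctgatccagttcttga
Fcgr4, chr1:171018676-171018975, plus strand: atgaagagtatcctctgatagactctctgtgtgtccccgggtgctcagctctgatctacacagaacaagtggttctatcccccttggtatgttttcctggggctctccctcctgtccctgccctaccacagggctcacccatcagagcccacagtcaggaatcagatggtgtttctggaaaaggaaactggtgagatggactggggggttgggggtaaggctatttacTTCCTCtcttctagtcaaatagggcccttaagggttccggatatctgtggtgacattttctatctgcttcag
Fcgr2b, chr1:170976022-170976321, minus strand: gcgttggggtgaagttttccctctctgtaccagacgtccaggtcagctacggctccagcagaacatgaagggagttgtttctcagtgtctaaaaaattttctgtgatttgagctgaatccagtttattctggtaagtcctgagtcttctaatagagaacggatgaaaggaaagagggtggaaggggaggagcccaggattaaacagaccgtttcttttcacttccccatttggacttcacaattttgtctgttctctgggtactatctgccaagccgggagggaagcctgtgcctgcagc
The 3 activating receptors each held 1 match, which began at position −55 in Fcgr1, −6 in Fcgr3 and −22 in Fcgr4 when the annotated start is 0. Fcgr3 has a second annotated start with the same box at −15. Fcgr2b, Fcer1g and Fcgrt held none in their windows. Among 32851 promoter windows of the same length, 28.3% held GAGGAA on either strand. TATAAA, on either strand, was in none of the 6 and in 13.6% of all windows. The matches describe the letters only, since no binding was measured.

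Library totals lay between 15563800 and 16710975 counts, and 12844 genes were tested. Gc itself had 0 counts in all 6 libraries, which allows up to 0.177 to 0.192 CPM per library (3 counts, counting error only), so the groups are named by their labels. Libraries also differed by base composition. Across genes, a library's deviation from the mean of all 6 had a Spearman's rho with GC content of 0.73, −0.03 and −0.40 in Vdbp replicates 1, 2 and 3 and −0.07, −0.62 and 0.07 in empty-vector replicates 1, 2 and 3. Of 13 dendritic cell markers only Zbtb46, Itgax, Irf8 and Cd74 passed the filter on low counts. The other 9, among them Flt3, Xcr1, Clec9a, Ccr7 and the class II genes H2-Aa, H2-Ab1 and Ciita, had at most 6 counts in any library. Of 10 macrophage and monocyte markers 9 passed, led by Lyz2 (1150 to 1570 FPKM), Cd68 (819 to 1080 FPKM) and Cd14 (394 to 462 FPKM), while Mertk had at most 4 counts. In bulk RNA, fewer cells of a type and less RNA per cell cannot be told apart.

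Fcer1g was the most abundant of the 6 genes and Fcgrt the least. Levels between genes are given as FPKM, the deposited value per kilobase of gene length, scaled to the library's depth. Fcer1g averaged 385 ± 31.5 FPKM in the libraries labelled Vdbp and 426 ± 61.9 FPKM in the empty-vector libraries (SD, n = 3 each), and ranked 107 by mean FPKM among 12844 tested genes. Next came Fcgr1 (84.4 ± 2.18 and 84.2 ± 7.53 FPKM), Fcgr4 (58.9 ± 2.14 and 59.4 ± 3.97 FPKM), Fcgr2b (18.1 ± 1.24 and 22.8 ± 1.78 FPKM), Fcgr3 (13.0 ± 0.51 and 14.7 ± 1.6 FPKM) and Fcgrt (5.04 ± 0.26 and 4.97 ± 1.27 FPKM), each with the Vdbp label first. This order held in all 6 libraries. The nearest neighbours were Fcgr2b and Fcgr3: the lowest Fcgr2b library had 16.9 FPKM and the highest Fcgr3 library 16.3 FPKM.

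The place of Fcgr2b in that order depends on the length assumed. The gene length of the table equals the merged exons, which is 5790 bases for Fcgr2b, 1.63 times its longest protein-coding transcript of 3544 bases. For Fcgr1 and Fcgr4 the merged exons equal the longest coding transcript (2589 and 1256 bases). With the longest coding transcript of each gene the order was unchanged in all 6 libraries. GENCODE M21 also holds an Fcgr2b transcript of 1578 bases with the same coding length of 1020 bases. Per kilobase of that one, Fcgr2b had 66.6 ± 4.39 CPM with the Vdbp label and 84.3 ± 6.88 CPM with empty vector, above Fcgr4 in both groups (59.2 ± 2.11 and 59.8 ± 4.19 CPM per kilobase), and in the empty-vector group it overlapped Fcgr1 (84.7 ± 7.50 CPM per kilobase). The deposited table gives 1 value per gene and does not say which transcript was present.

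**Figure D1:**
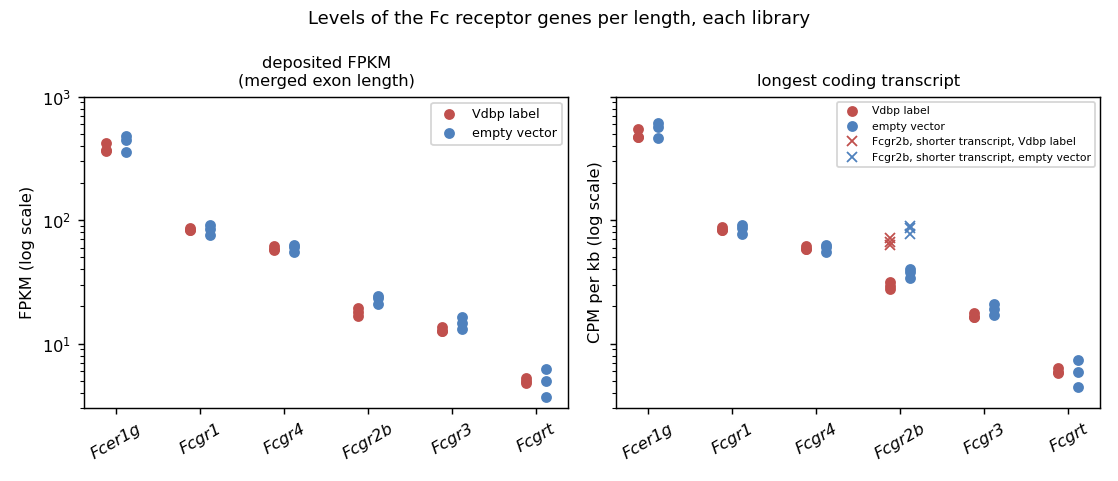
Levels of the 6 genes per length in each library on a log axis, with the Vdbp label in red and the empty vector in blue. Left, deposited FPKM by merged exon length; right, CPM per kilobase of the longest coding transcript, with crosses for Fcgr2b by its transcript of 1578 bases. The order is the same in both panels except that the crosses of Fcgr2b lie above Fcgr4.

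Among the activating receptors, Fcgr1 and Fcgr4 had nearly the same level in both groups. Here and below a gene is compared with itself as CPM, which is counts scaled to the library size after TMM normalisation. Fcgr1, the high-affinity receptor that also binds monomeric IgG, had 227, 217 and 215 CPM in Vdbp replicates 1, 2 and 3 and 237, 223 and 198 CPM in empty-vector replicates 1, 2 and 3. The Vdbp values lay inside the empty-vector range. The log2 fold change (Vdbp label over empty vector, edgeR) was 0.0021 with a 95% interval of −0.20 to 0.21, or 0.868 to 1.16 as a fold. Fcgr4, the receptor with preference for IgG2a and IgG2b, had 72.8, 72.8 and 77.4 CPM with the Vdbp label and 76.5, 79.6 and 69.3 CPM with empty vector. The groups overlapped fully, with a log2 fold change of −0.01 (−0.22 to 0.20). For both genes the sign of the difference turned when some libraries were left out or length and GC were corrected for, and for Fcgr1 also with total-count scaling, and the values stayed within 0.07 of 0 on the log2 scale in all alternatives tried.

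Fcgr3, the low-affinity activating receptor of myeloid and natural killer cells, was the scarcest of the 3. It had 22.2, 22.0 and 23.6 CPM in the libraries labelled Vdbp and 28.4, 25.8 and 22.9 CPM in the empty-vector libraries. Only empty-vector replicate 3 lay within the range of the Vdbp label. The log2 fold change was −0.18 (SE 0.12, interval −0.45 to 0.08), with an adjusted p of 0.781 by edgeR's quasi-likelihood test. Without empty-vector replicate 1 the log2 fold change was −0.11. Between 357 and 462 counts stand behind each value.

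Fcer1g, the signalling chain these receptors share, had 371, 319 and 324 CPM in Vdbp replicates 1, 2 and 3 and 388, 422 and 313 CPM in empty-vector replicates 1, 2 and 3. Empty-vector replicate 3 was the lowest of all 6 libraries and the other empty-vector libraries the highest, so the groups overlapped. The log2 fold change was −0.15 (SE 0.12, interval −0.41 to 0.11; adjusted p of 0.784 by edgeR). Without empty-vector replicate 3 it was −0.26, and without empty-vector replicate 2 it was −0.05. The size of the value depended on which empty-vector library was kept.

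Fcgr2b, the inhibitory receptor, was the only one of the 6 whose groups did not overlap. Its level was 98.4, 112 and 105 CPM in Vdbp replicates 1, 2 and 3, against 135, 143 and 121 CPM in empty-vector replicates 1, 2 and 3. The highest value with the Vdbp label was under the lowest one with empty vector. The means were 105 ± 6.92 and 133 ± 10.9 CPM (SD, n = 3 each). On the log2 scale the difference was −0.34 (SE 0.10, interval −0.55 to −0.13), which is a fold of 0.790. The unadjusted p was 0.0047, rank 50 of 12844 tested genes, and the adjusted p of edgeR's quasi-likelihood test was 0.781, so the difference did not pass. An exact two-sided permutation test of the 3 and 3 libraries gave p = 0.1, the smallest value this design allows.

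The share of genes that behave like Fcgr2b gives the scale for reading it. At an adjusted p under 0.05 edgeR called 0 of 12844 genes (0%), and 687 (5.35%) had an unadjusted p under 0.05, as 1 of the 6 Fc receptor genes did. That 687 was 382, 258 and 1158 without empty-vector replicates 1, 2 and 3, taken in turn. It was 476, 576 and 1532 without Vdbp replicates 1, 2 and 3. Groups that did not overlap were seen in 10.9% of tested genes in either direction in 5.61% with the Vdbp label lower and in 5.26% with it higher. An unadjusted p under 0.05 with the Vdbp label lower was found in 2.54%. A log2 fold change at or below that of Fcgr2b was found in 4.94% of tested genes. With 6 genes, 1 such member is not read as a property of the family. The members' log2 fold changes were below 0 in 4 and above 0 in 2, with a median of −0.08, beside a median of −0.01 over all tested genes. With the length and GC correction the members' median was −0.14, beside 0.0043 over all tested genes, with Fcgr1 and Fcgrt below 0 and Fcgr4 at 0.00048. None of the 6 was called by edgeR, by DESeq2 (0.0166% of 24134 genes called), by edgeR without a filter on low counts (0.369% of 24135 genes) or in any other alternative.

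**Figure D2:**
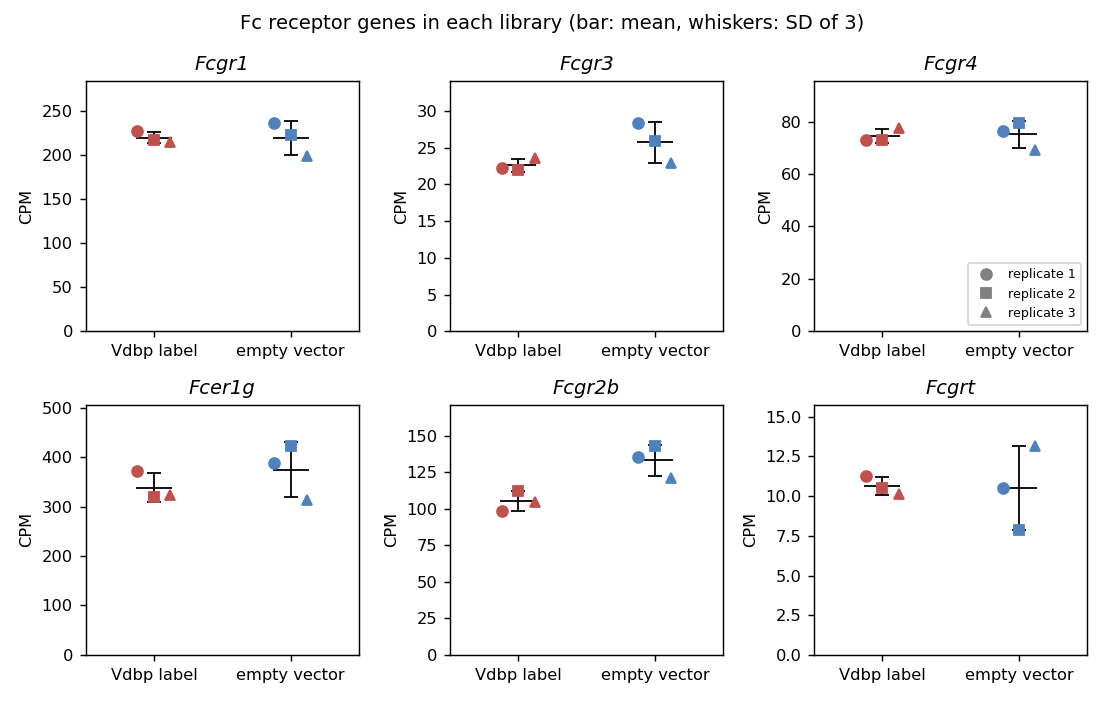
CPM of each Fc receptor gene in each library (Vdbp label left, empty vector right; marker shape gives the replicate number, bars the mean and whiskers the SD of 3 libraries). Fcgr2b is the only panel in which all 3 Vdbp values (98.4 to 112 CPM) lie under all 3 empty-vector values (121 to 143 CPM).

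Base composition and 3 cell marker lists are set beside the Fcgr2b value here. The summed values of the macrophage and B cell lists overlapped between the groups, and those of the dendritic cell list did not. The longest transcript of Fcgr2b had a GC content of 45.4%, the lowest of the 6 genes, where Fcgrt had the highest (55.9%). With a correction for length and GC content its log2 fold change was −0.25 (unadjusted p 0.0027, adjusted p of 0.54 by edgeR). That correction left 0.00779% of all tested genes called and 8.22% at an unadjusted p under 0.05, of which those lower with the Vdbp label made up 3.87% of the genes tested. The macrophage marker list, summed, ran from 2841 to 3065 FPKM with the Vdbp label and from 3022 to 3517 FPKM with empty vector. Of its 9 tested genes, 3 (Adgre1, Itgam and Lyz2) were lower without overlap, beside 5.61% of all tested genes. The dendritic cell list, summed, ran from 150.5 to 179 FPKM with the Vdbp label and from 134.8 to 143 FPKM with empty vector. Of its 4 tested genes, 1 (Cd74) was higher without overlap, beside 5.26% of all tested genes. Cd74 itself had 132.4 to 158.7 FPKM with the Vdbp label and 116 to 122.9 FPKM with empty vector. The part of these lists in the Fcgr2b value was not tested. B cells also carry Fcgr2b, and the B cell list summed to 0.252 to 0.385 FPKM with the Vdbp label and 0.283 to 0.564 FPKM with empty vector, with Ms4a1 at 0 counts in every library.

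**Figure D3:**
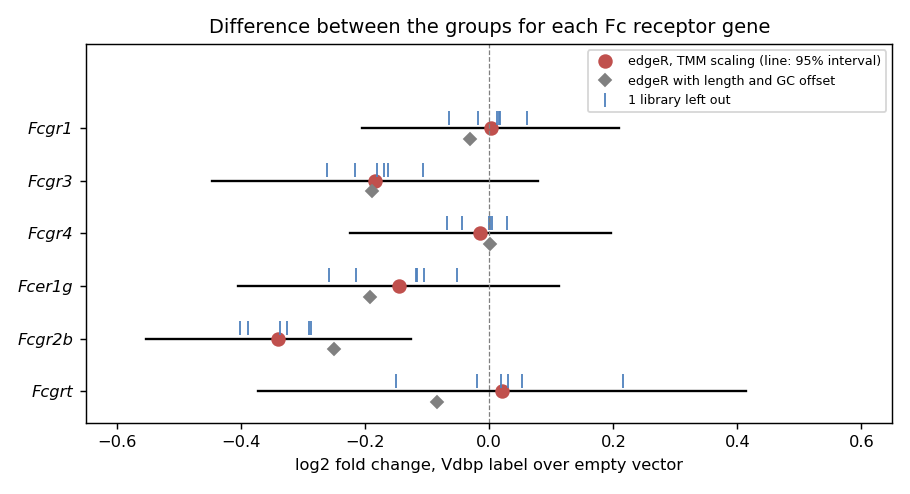
Log2 fold change of each gene (Vdbp label over empty vector; red points, with lines for the 95% interval), with grey diamonds for the fit with a length and GC correction and blue ticks for fits without 1 library. The interval of Fcgr2b (−0.55 to −0.13) is the only one that does not include 0, and its ticks run from −0.40 to −0.29.

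Reads of Fcgr2b and Fcgr3 can be hard to place, because both genes encode nearly the same extracellular part. The longest identical coding run of the pair is shown for that reason. It is 129 bases long, begins at coding base 278 of Fcgr2b and 263 of Fcgr3, and occurs in transcripts of these 2 genes only.
Fcgr2b and Fcgr3, shared coding run: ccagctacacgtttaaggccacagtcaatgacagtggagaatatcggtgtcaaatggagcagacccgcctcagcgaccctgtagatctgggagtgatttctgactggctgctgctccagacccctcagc
Of the windows of 50 bases in Fcgr3 transcripts, 9.58% also occurred in transcripts of another gene, Fcgr2b, and of those in Fcgr2b transcripts 4.38% occurred in Fcgr3 or other genes. With windows of 100 bases the shares were 2.54% and 1.4%, and with 150 bases none was shared. The other 4 members shared no window of 50 bases. The sources used here give neither the read length nor how reads in such stretches were counted, so the split of counts between Fcgr2b and Fcgr3 carries that uncertainty. A predicted gene on the opposite strand, Gm38204, overlaps 155 of the 5790 exon bases of Fcgr2b and had between 0 and 4 counts per library.

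Fcgrt, the FcRn heavy chain, did not follow the other genes. It had 11.3, 10.5 and 10.2 CPM with the Vdbp label and 10.5, 7.85 and 13.1 CPM with empty vector. The Vdbp values lay close together inside a wide empty-vector range. The log2 fold change was 0.02 with an interval of −0.37 to 0.41, the widest of the 6. Leaving out empty-vector replicate 2 gave −0.15, leaving out empty-vector replicate 3 gave 0.215, and the length and GC correction gave −0.085. Between 130 and 222 counts stand behind each value. Empty-vector replicate 3 was the highest empty-vector library for Fcgrt, while it was the lowest for the other 5 genes. In all 6 genes the coefficient of variation over libraries was smaller with the Vdbp label (2.86% to 8.48%) than with empty vector (7% to 25.2%). The share of all tested genes with this order was not computed, so it is not read as a trait of the family. Over all genes, library pairs differed by a chi-square per gene of 7.38 to 27.4 with the Vdbp label. With empty vector it was 8.86 to 17.5, where sampling alone gives about 1.

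Ratios between members within a library do not depend on how libraries are scaled, but they are not corrected for GC content. The ratio of the summed activating receptors Fcgr1, Fcgr3 and Fcgr4 to Fcgr2b, in FPKM, was 9.32, 7.97 and 8.76 in Vdbp replicates 1, 2 and 3, against 7.22, 6.68 and 6.92 in empty-vector replicates 1, 2 and 3. Each library labelled Vdbp had a higher ratio than each empty-vector library, with means of 8.68 ± 0.68 and 6.94 ± 0.27 (SD, n = 3 each). The highest ratio was in Vdbp replicate 1 and the lowest in empty-vector replicate 2. These libraries also had the highest and lowest rho with GC content (0.73 and −0.62). The part of base composition in the ratio was not tested. The ratio rests on the same Fcgr2b counts as above and is given as a description with no test.

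The single ratios differed in how well the groups parted. Fcgr4 to Fcgr2b was 3.41, 2.99 and 3.41 with the Vdbp label and 2.61, 2.57 and 2.64 with empty vector, a narrow range in the controls. Fcgr1 to Fcgr2b was 5.16, 4.32 and 4.60 with the Vdbp label and 3.91, 3.50 and 3.66 with empty vector, again without overlap. Both ratios divide by the same Fcgr2b counts, whose groups did not overlap, so they are not separate findings. The share of gene pairs whose ratios part in this way was not computed. Fcgr3 to Fcgr2b overlapped, at 0.753, 0.654 and 0.753 with the Vdbp label and 0.700, 0.604 and 0.630 with empty vector. The signalling chain per activating receptor, Fcer1g over the sum of the 3, overlapped too, at 2.68, 2.37 and 2.34 with the Vdbp label and 2.64, 2.93 and 2.47 with empty vector. By the longest coding transcripts the activating to Fcgr2b ratio was 5.44 ± 0.42 with the Vdbp label and 4.36 ± 0.17 with empty vector. The level of these ratios thus depends on the length assumed for Fcgr2b. By its transcript of 1578 bases Fcgr2b lay above Fcgr4 in both groups, and the ratios would be lower still.

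**Figure D4:**
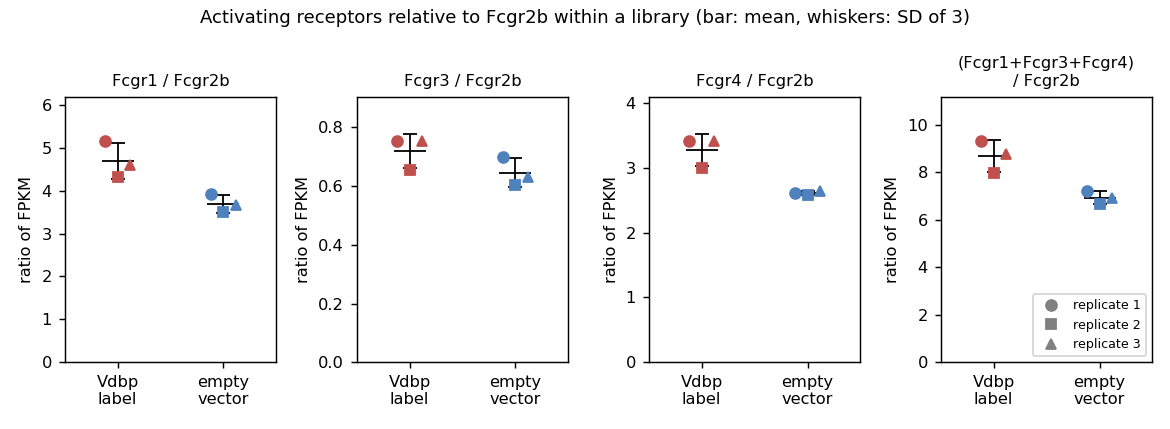
Ratio of FPKM of the activating receptors to Fcgr2b within each library, singly and summed (Vdbp label left, empty vector right; bars are means and whiskers the SD of 3 libraries). The groups part for Fcgr1, Fcgr4 and the sum (7.97 to 9.32 with the Vdbp label, 6.68 to 7.22 with empty vector) and overlap for Fcgr3.

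Most other Fc receptor genes were not measured at a usable level. Of 13 genes in this list, 3 passed the filter. Fcer1a and Ms4a2, the other chains of the high-affinity IgE receptor of mast cells and basophils, had 0 counts in all 6 libraries, so these chains were not detected at a limit of 0.177 to 0.192 CPM. Fcmr, Fcamr, Pigr and Fcrl6 also had 0 counts in every library. The measured ones were the Fc receptor-like gene Fcrl1 (28.5 ± 2.15 CPM with the Vdbp label and 26.9 ± 1.51 CPM with empty vector), the Fc receptor-like gene Fcrlb (5.78 ± 1.00 and 6.16 ± 1.33 CPM, in the same order), and Trim21, the cytosolic antibody receptor (6.96 ± 0.90 and 7.59 ± 0.88 CPM). In each of the 3 the means differed by less than the larger SD of the groups.

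Genes that act with the receptors are given next, with the Vdbp label first in each pair of values. Of 74 tested genes in these lists and the one above, edgeR called 0 over all genes, 6 had an unadjusted p under 0.05 (beside the 5.35% of all genes) and DESeq2 called 0. Of the 20 genes of ITAM signalling 19 were tested, 9 with a log2 fold change above 0 and 10 below, with a median of −0.01. Rac2, a GTPase of phagocyte actin and oxidase control, had 702 ± 88.6 and 679 ± 45.1 CPM. Plcg2, the phospholipase downstream of Syk, had 285 ± 32.3 and 270 ± 16.5 CPM. Lcp2, the adaptor SLP-76 and the member with the smallest p, had 153 ± 13.0 and 183 ± 7.65 CPM, a log2 fold change of −0.26 (unadjusted p 0.0186). Its groups did not overlap. Of the 19 genes, 3 were lower and 2 higher without overlap, beside 5.61% and 5.26% of all tested genes. Syk itself, named outside the rule as the kinase of the pathway, had 194 ± 14.2 and 195 ± 14.1 CPM.

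The 9 inhibitory phosphatases and adaptors all passed the filter. Their median log2 fold change was 0.08 and became 0.00081 with the length and GC correction. Ptpn6, the phosphatase SHP-1, had 419 ± 34.2 and 392 ± 15.7 CPM, and Csk, the kinase that restrains Src family kinases, 166 ± 25.9 and 143 ± 11.7 CPM. Inpp5d, which encodes SHIP1, the phosphatase through which Fcgr2b acts, had 236 ± 23.6 and 240.1 ± 19.1 CPM and was named outside the rule for that role. Its groups overlapped, with a log2 fold change of −0.02.

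The list of ITAM adaptors and other partners of the FcR gamma chain had 5 of 11 genes tested. Their median was −0.22, or −0.11 with the length and GC correction. Both medians include the adaptors Tyrobp and Hcst. The list holds C-type lectin receptors of fungal and mycobacterial recognition that signal through Fcer1g. Clec4n, encoding Dectin-2, had 4.83 ± 0.26 and 7.09 ± 0.86 CPM (log2 fold change −0.55, unadjusted p 0.0070), and Clec4e, encoding Mincle and named after its values were seen, 151 ± 23.3 and 194 ± 18.7 CPM (−0.36, unadjusted p 0.0122). Both were lower without overlap between the groups, the only 2 of the 5 tested, beside 5.61% of all tested genes. Clec4d overlapped, at 388 ± 32.0 and 452 ± 40.5 CPM. Tyrobp, the related adaptor DAP12, had 173 ± 21.5 and 174 ± 9.45 CPM. The smallest adjusted p of the list by edgeR was 0.781.

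All 19 genes of the phagocytic cup and phagosome were tested, with a median of −0.08 (7 above 0 and 12 below). The oxidase subunit Cyba had 669 ± 111 and 594 ± 54.9 CPM and the lysosomal protein Lamp1 1249 ± 30.5 and 1324 ± 81.6 CPM. Cybb, the catalytic oxidase subunit and the member with the smallest p, had 353 ± 45.1 and 426 ± 32.3 CPM without overlap. Of the 19 genes, 2 were lower without overlap, beside 5.61% of all tested genes. For FcRn, 5 of 6 genes of its light chain and recycling were tested, with a median of 0.02 that became −0.02 with the length and GC correction. B2m had 2093 ± 147 and 2336 ± 344 CPM, Ehd1, a protein of endosome recycling, 312 ± 46.0 and 273 ± 17.7 CPM, and the recycling GTPase Rab11a 84.1 ± 5.26 and 96.9 ± 6.22 CPM. Of these 5 genes only Rab11a had groups that did not overlap, beside 10.9% of all tested genes in either direction.

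The 14 regulators of Fc receptor transcription were all tested, with a median of 0.05 (8 above 0 and 6 below) that became −0.01 with the length and GC correction. Spi1, encoding PU.1, had 336 ± 45.0 and 291 ± 16.5 CPM, and Cebpb, a myeloid factor of inflammation, 559 ± 66.2 and 455 ± 122 CPM. In C5ar1, the receptor for the complement fragment C5a and known in mouse macrophages to shift the balance of IgG receptors, the groups did not overlap, at 260 ± 25.0 and 219 ± 13.9 CPM (log2 fold change 0.25, unadjusted p 0.0276, adjusted p of 0.781 by edgeR). Of the 14 regulators, 2 were higher and 1 lower without overlap, beside 5.26% and 5.61% of all tested genes.

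**Figure D5:**
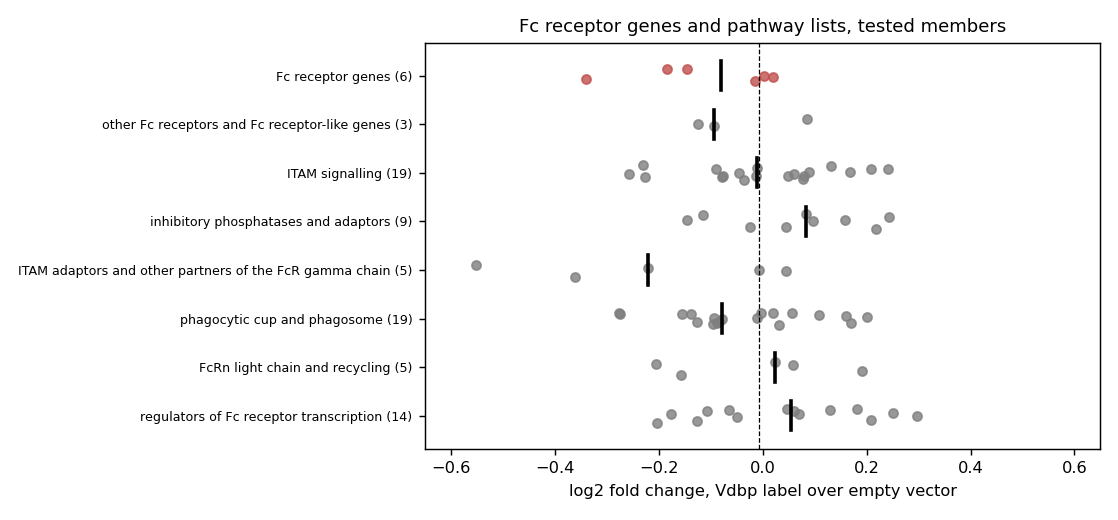
Log2 fold change (Vdbp label over empty vector) of the tested members of each list, with the number tested in brackets, black bars at the list medians and a dashed line at the median of all tested genes (−0.01). The Fc receptor genes are in red, with a median of −0.08. The list of ITAM adaptors and other partners of the FcR gamma chain has a median of −0.22. With the length and GC correction, which is not drawn, these medians were −0.14 and −0.11.

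The genes most like each member over the 6 libraries were found by the root-mean-square gap between log2 CPM profiles scaled to a mean of 0 and an SD of 1, among 9362 protein-coding genes. For Fcgr2b they were Txndc12, Stra6l and Cdca7l (gaps of 0.125, 0.15 and 0.153), and for Fcer1g Ifngr2, Zfp592 and Rhno1 (0.138, 0.165 and 0.177). The closest to Fcgr3 was Focad (0.082), to Fcgr4 Hsd17b11 (0.118), to Fcgr1 Tax1bp3 (0.152) and to Fcgrt Msl1 (0.17). Members were less alike than that. The closest pair among them was Fcgr2b and Fcgr3 (0.615), followed by Fcgr1 and Fcer1g (0.663), while Fcgrt was 1.55 to 1.78 from each of the others. With so many genes and 6 libraries, small gaps arise easily, so these are descriptions of the profiles.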

How the data were processed

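Messenger RNA libraries of 6 samples of DC2.4 cells were used, 3 of each group. Counts per Ensembl gene, whole numbers with no normalisation, were deposited in 1 table. The authors also deposited FPKM values, and each equals the count divided by gene length and by 1 constant per library (largest relative gap 1e-14 in genes with over 50 counts). Per the submitters' processing notes, HISAT2 and StringTie were used. The counting tool, strand setting, read length and build are not given in the sources used. Of the gene identifiers, 99.8% were in GENCODE M21 with the same coordinates for 98.3% of them.

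Counts were fitted in R 4.3.3 with edgeR 4.0.16 over all genes kept by filterByExpr (minimum count 10, total 15, proportion 0.7), with TMM scaling, a quasi-likelihood F test of group and Benjamini-Hochberg adjustment over 12844 genes at a threshold of 0.05. All 6 members passed the filter. The SE is the size of the log2 fold change over the root of F, and intervals are 95%. Library pairs within a group differed by more than sampling noise (chi-square per gene of 7.38 to 27.4, where sampling alone gives about 1), so none was counted as a library deposited again. This does not tell separate cultures from separate library preparations.

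Tried in turn were scaling by RLE, upper quartile or total count, limma-voom (limma 3.58.1), DESeq2 1.42.0, no filter, a filter at 1 CPM in each library of either group, a replicate block, an offset for gene length and GC content (mgcv 1.9.3) with and without the block, log2 FPKM in limma (pseudocount 1 or 0.1, and 1 with a filter at 0.5 FPKM), a threshold of 0.01, and leaving out each library. A fit without Vdbp replicate 1 and empty-vector replicate 2, the extremes of the first principal component, and the transcript lengths were added after seeing the data. The members and gene lists were chosen with earlier results of these data known. From each list without a passing gene, the rule named the 2 genes with the highest mean FPKM and the gene with the smallest p, and likeness took the 3 closest protein-coding genes above a mean of 5 CPM with no predicted symbol.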

Additional observations from a re-analysis of the deposited data

How the results depend on the processing

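The number of Fc receptor genes called was 0 in all 21 alternatives. Fcgr2b, Fcgr3 and Fcer1g kept a negative log2 fold change in all 21, with ranges of −0.40 to −0.24, −0.26 to −0.11 and −0.26 to −0.05, and none passed (smallest adjusted p of edgeR 0.302 for Fcgr2b, without a filter). Fcgr1, Fcgr4 and Fcgrt, close to 0 in the main fit, changed sign. Fcgr1 was −0.0025 with total-count scaling, −0.031 with the length and GC offset, −0.026 with that offset and the replicate block, and −0.012 without the pair of libraries at the extremes of the first principal component. Fcgr4 was 0.00048, 0.0014 and 0.041, and Fcgrt −0.085, −0.068 and −0.197, in the last 3 of these. Leaving out 1 library gave −0.065 to 0.060 for Fcgr1, −0.069 to 0.029 for Fcgr4 and −0.151 to 0.215 for Fcgrt. The cause was not tested. The count of genes called over all genes, 0 in the main fit, was 4 with DESeq2, 89 without a filter, 1 with the length and GC offset, 4 with log2(FPKM + 1), 2 without that pair, and 0 to 22 without 1 library, the highest without empty-vector replicate 3. At an unadjusted p under 0.05 there were 687 in the main fit, 626 with DESeq2, 1375 without a filter, 1056 with the length and GC offset, and 258 to 1532 without 1 library.

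Replicate numbers are shared between the groups by label only: same-numbered libraries had correlated deviations of 0.144, 0.034 and −0.265, so they were not taken as pairs. With the replicate block 0 genes were called, and Fcgr2b was −0.34 (adjusted p of 0.773 by edgeR). Depth limits Fcgrt most, at 130 to 222 counts per library.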
